A study of Mus musculus with 2 samples.

Results

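CD8 effector T cells were taken from the CD45+ cells of GL261 gliomas as the barcodes that carried T cell and CD8 transcripts without those of other T cell subsets. Barcodes needed a minimum of 300 genes and 500 UMIs, with mitochondrial genes holding less than 10% of the UMIs. A UMI is a tag that marks 1 captured RNA molecule. A member then had at least 2 UMIs over Cd3d, Cd3e and Cd3g, at least 2 over Cd8a and Cd8b1, none of Cd4, Foxp3 or Lef1, under 0.5% of its UMIs on C1qa and C1qb, and under 3 UMIs over the cycling genes Mki67 and Top2a. By this rule 636 of 15234 kept barcodes were members, 218 of 8155 after PBS and 418 of 7079 after ibudilast. GL261 is a mouse glioma cell line, grown here in the brains of C57BL/6 mice. Both groups of mice carried the tumour. The first received PBS by gavage and is labelled untreated, and the second received ibudilast, an inhibitor of phosphodiesterases and of the cytokine MIF, at 20 mg/kg. Both were dosed 5 times a week for 2 weeks. There was 1 library per group, and neither the number of mice behind each nor their age is given in the sources used here, so no difference below has a replicate check and no p-value is given. The intervals given have a level of 95% and describe counting error alone. Differences among cells or among mice are not in them.

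CD8 T cells recognise peptides on MHC class I through a T cell receptor of paired alpha and beta chains. After activation they leave the naive programme of Lef1 and Tcf7, enter tissue, and kill target cells with perforin, which opens the membrane, and granzymes, proteases that enter behind it. Cells that meet antigen for long in a tumour also take up inhibitory receptors such as PD-1 and the transcription factor Tox.

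Levels are the gene's share of the UMIs summed over the members of a library, on the usual CPM scale. Cd3e, a subunit of the receptor's signalling complex, was at 650 CPM in PBS members and 581 in ibudilast members and had a UMI in 98.2% and 98.1% of members, which the rule on Cd3 UMIs largely fixed. Of the markers outside the rule, Cxcr6, a chemokine receptor of tissue-resident T cells, was found in 95% and 92.1%, and Klrd1, the CD94 receptor shared with NK cells, in 96.8% and 97.1%. The naive marker Tcf7, which did not enter the rule, was low at 5.90 and 8.63 CPM. Klrg1, a marker of short-lived effector cells in blood, had a UMI in 1.83% and 1.67% of members. The rule has no term against gamma-delta T cells. Trdc, the delta chain constant gene, stood at 67.4 and 68.8 CPM, and the other 5 listed markers of that lineage that the files hold had no UMI in either library. Trgc2, a gamma chain constant gene looked up after values were seen, stood at 172 and 153 CPM with a UMI in 52.3% and 38.8% of members.

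Depth per cell was alike. The members held 2033141 UMIs in the PBS library (median 8212.5 per cell) and 4055049 in the ibudilast library (median 8037.5), with 2331.5 and 2373 genes per cell at the median. 19 barcode sequences occurred in both libraries; 2 of them were members in 1 library, none in both. Near the limits of the rule, 2 and 6 members had exactly 2 Cd8a and Cd8b1 UMIs, while 5 and 19 barcodes that met all other limits had 1. With 2 UMIs of Mki67 and Top2a, 25 and 42 barcodes were inside, and with 3, 15 and 24 were outside. At 0.4 to 0.5% of UMIs on C1qa and C1qb, 13 and 15 barcodes were inside, and at 0.5 to 0.6%, 11 and 22 were outside.

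RNA of macrophages was present in most members. Only 4 PBS and 28 ibudilast members had no UMI of C1qa or C1qb, complement genes of macrophages. Apoe stood at 2562 and 2559 CPM and Lyz2 at 912 and 932, and none of the 12 listed macrophage markers was at 0. Over 9 genes of myeloid cells, among them Spi1, Csf1r, Cd68 and Adgre1, 34 of 218 PBS members (15.6%, interval 11.0 to 21.1) and 95 of 418 ibudilast members (22.7%, interval 18.8 to 27.1) had at least 10 UMIs. A second cell in the barcode and free RNA cannot be told apart here. The summed level of the 12 markers was 7985 and 8442 CPM over all members, and 3748 and 2687 CPM without those barcodes, so results are given with and without them. The limit was chosen after the data were seen.

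CD8 effector T cells made up 2.67% of kept PBS barcodes (interval 2.33 to 3.05) and 5.90% of kept ibudilast barcodes (interval 5.37 to 6.48). The ratio of ibudilast to PBS was 2.21 (interval 1.87 to 2.61). Among barcodes with at least 2 Cd3 UMIs the shares were 13.8% of 1578 and 22.5% of 1859, a ratio of 1.63 (interval 1.38 to 1.93). Against all kept barcodes, cycling CD8 T cells, which differ in the rule only by at least 3 UMIs of Mki67 and Top2a, had a ratio of 2.80 (interval 2.02 to 3.94) and NK cells of 2.48 (interval 2.03 to 3.05). Foxp3 regulatory T cells had a ratio of 1.26 (interval 0.910 to 1.75) and conventional CD4 T cells of 1.06 (interval 0.809 to 1.38). Macrophages were 3711 of the kept PBS and 1681 of the kept ibudilast barcodes, and a share moves with what else the sort holds. The limit on C1qa and C1qb removed 169 of 440 PBS and 232 of 779 ibudilast CD8 barcodes that met the limits before it. The differences between these ratios were not tested.

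Genes were counted with at least 100 UMIs over both libraries, and called higher or lower in the ibudilast library past a ratio of 1.5 either way, with 0.5 UMIs added to each sum. Of 5859 such genes, 146 (2.49%) were higher and 52 (0.888%) lower, and the median log2 ratio was 0.03. Without the barcodes of at least 10 myeloid UMIs, 67 of 4389 (1.53%) were higher and 57 (1.3%) lower, of which 29 and 17 were called over all members too. Of the 146 higher genes, 61 (41.8%) stood at a level in PBS macrophages at least 2 times that in PBS members. The same held for 5 of the 52 lower genes (9.62%) and for 571 of all 5859 (9.75%). By this cut the higher genes held macrophage genes more often than all genes counted, and the lower ones did not. The level in PBS members enters both the cut and the ratio that calls a gene. A low PBS level favours both a call as higher and passing the cut, so part of this contrast was built in. In the plot of all genes, most points lie between the dotted lines, with Ccl1 far below and Trbc1 well above them.

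**Figure D1:**
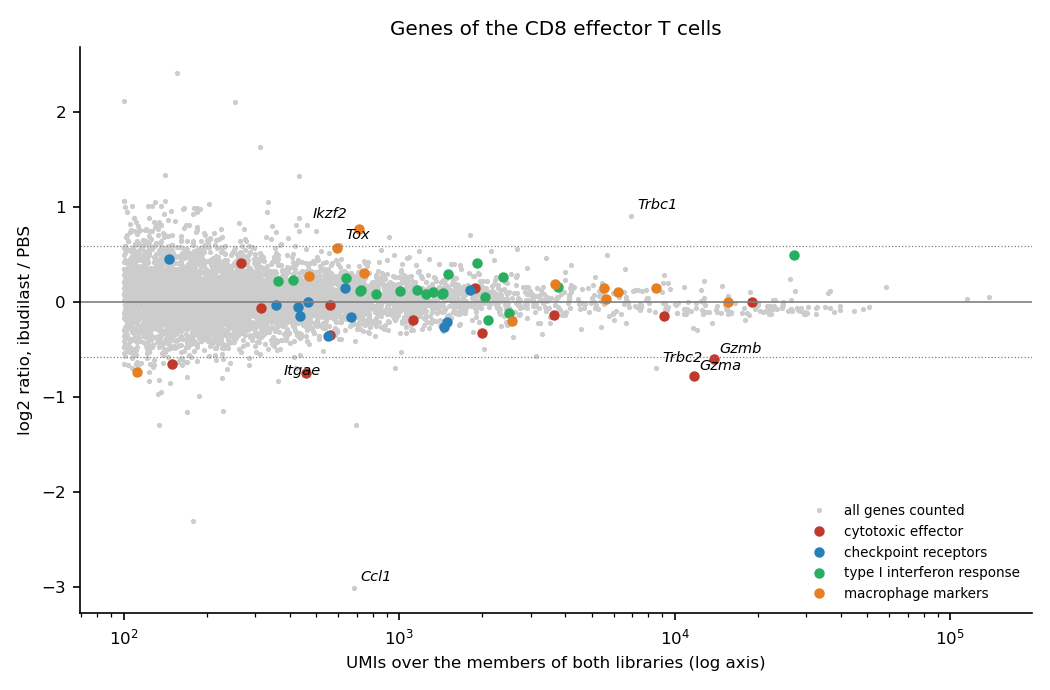
Log2 ratio of the summed UMI levels in CD8 effector T cells, ibudilast over PBS, against the UMIs of the gene over both libraries (log axis), for the 5859 genes counted; dotted lines mark a ratio of 1.5 either way. 4 cytotoxic genes (red) lie at or below the lower line, and no checkpoint receptor (blue) or type I interferon gene (green) lies past either.

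The genes of killing were not even between the libraries: 4 of 5 counted granzymes were lower over all members, while perforin did not pass the limit either way. Of the 17 cytotoxic genes listed, 14 were counted. None was higher and 4 were lower, against 0.888% of all genes, and their median log2 ratio was -0.17. The 4 were Gzma, Gzmb, Gzmc and Gzmk. Without the barcodes of at least 10 myeloid UMIs only Gzmk remained past 1.5 and the median was -0.10. The promoters of Gzma, Gzmb and Gzmk, and of the chemokine gene Ccl1 described below, are shown because these genes were lower: each line gives the 250 bases before the RefSeq start site (GRCm38.p6, minus strand), for Gzma at chr13:113100982-113101231, Gzmk at chr13:113180966-113181215, Gzmb at chr14:56262335-56262584 and Ccl1 at chr11:82179813-82180062.
Gzma: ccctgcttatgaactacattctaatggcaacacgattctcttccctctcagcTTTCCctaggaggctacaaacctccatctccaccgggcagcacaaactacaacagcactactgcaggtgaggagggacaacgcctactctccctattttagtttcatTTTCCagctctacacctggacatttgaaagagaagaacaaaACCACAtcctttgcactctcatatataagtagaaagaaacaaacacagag
Gzmk: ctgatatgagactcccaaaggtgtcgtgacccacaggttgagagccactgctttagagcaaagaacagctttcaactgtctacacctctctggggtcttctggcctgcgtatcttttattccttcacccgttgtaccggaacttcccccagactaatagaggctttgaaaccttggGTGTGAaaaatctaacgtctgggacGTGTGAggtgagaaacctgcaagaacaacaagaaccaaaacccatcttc
Gzmb: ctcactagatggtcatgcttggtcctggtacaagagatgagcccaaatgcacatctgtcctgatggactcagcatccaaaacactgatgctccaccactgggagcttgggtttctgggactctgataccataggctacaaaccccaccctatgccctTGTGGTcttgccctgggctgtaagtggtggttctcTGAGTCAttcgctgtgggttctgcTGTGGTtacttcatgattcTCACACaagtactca
Ccl1: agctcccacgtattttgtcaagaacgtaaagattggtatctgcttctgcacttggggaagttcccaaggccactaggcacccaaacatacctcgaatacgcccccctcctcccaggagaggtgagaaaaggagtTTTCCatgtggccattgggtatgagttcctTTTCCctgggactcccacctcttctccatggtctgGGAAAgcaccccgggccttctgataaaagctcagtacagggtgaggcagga
Capitals mark matches, on either strand, of 4 motifs of factors that act in activated T cells. AP-1 (TGANTCA) is in 6.75% of 32851 RefSeq promoters of this kind and here in Gzmb. RUNX (TGTGGT) is in 14% and here in Gzma and Gzmb. NFAT (GGAAA) is in 55.6% and here in Gzma and Ccl1, and T-box (GTGTGA) is in 12.3% and here in Gzmk and Gzmb. The motif of the cAMP response factor CREB (TGACGTCA, in 1.55%) and its shorter form (TGACG, in 17.8%) are in none of the 4 windows. These are matches of letters, and whether a factor binds there was not measured.

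Gzma, a protease of cytotoxic granules that triggers death without the caspases, was at 2663 CPM in PBS members and 1550 in ibudilast members (ratio 0.582, interval 0.561 to 0.604). Few cells carried it: 5 cells held 35.0% and 36.9% of its UMIs, and the median cell had 0. Cells with at least 5 Gzma UMIs were 43 of 218 (19.7%, interval 14.7 to 25.6) in the PBS library and 53 of 418 (12.7%, interval 9.64 to 16.3) in the ibudilast library, at 10933 and 9552 CPM. Cells with none were 156 (71.6%) and 301 (72.0%). By this cut, set after the data were seen, cells rich in Gzma were a smaller share in the ibudilast library. The intervals overlapped, and the Gzma level within these cells was similar. Cells with 1 to 4 UMIs were 19 (8.72%) and 64 (15.3%). Gzma RNA lay outside its own cells as well, and there it was at 83.8 CPM in PBS macrophages and 286 in ibudilast macrophages, the reverse of the members. With each cell thinned to 2000 UMIs, 21.8% and 16.1% of members had a Gzma UMI, beside 3.41% and 9.73% of macrophages, whose median depth before thinning was 14219 and 9467 UMIs. Thinned to 4000 UMIs, the members' shares were 21.9% and 20.9%, and unthinned 28.4% and 28.0%, so the gap at 2000 UMIs was not seen there.

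Gzmb, the granzyme that cuts caspases in the target, was at 2940 and 1937 CPM (ratio 0.659, interval 0.637 to 0.682). It was spread over most members: 83.0% and 67.9% had a UMI, with medians of 10 and 4 per cell. Thinned to 2000 UMIs the shares were 70.8% and 54.6%, beside 3.08% and 6.77% of macrophages. Without the barcodes of at least 10 myeloid UMIs the ratio was 0.745 (interval 0.717 to 0.774), no longer past 1.5. Gzmk, found on less terminal CD8 cells, was at 103 and 61.4 CPM (ratio 0.594, interval 0.493 to 0.718), and at a ratio of 0.661 without those barcodes. Gzmc was at 32.5 and 20.7 CPM (ratio 0.637, interval 0.457 to 0.895). For Gzma the ratio without those barcodes was 0.718 (interval 0.690 to 0.747).

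Perforin did not follow. Prf1 was at 287 and 319 CPM (ratio 1.11, interval 1.01 to 1.23), with a UMI in 68.8% and 70.1% of members. Nkg7, a granule membrane protein, had a ratio of 1.0, Srgn, the proteoglycan that packs granzymes, 0.904, Ctsw 0.908 and Cst7, a cathepsin inhibitor, 0.798. Fasl, a death ligand, stood at 107 and 84.1 CPM (ratio 0.784) and Tnfsf10 at 93.0 and 91.2 (ratio 0.980). Gzmf was at 35.9 and 47.8 CPM (ratio 1.33, interval 1.01 to 1.77), carried by 3.21% and 1.20% of members. Gzmd and Gzme had no UMI, and Gzmm had 7 and 10.

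The cells rich in Gzma were compared with those without it, gene by gene and with no test. PBS cells with at least 5 Gzma UMIs had Gzmb at 5650 CPM against 1864 in cells with none, Gzmk at 242 against 55.5, Klf2, a factor of circulating T cells, at 789 against 292, and Tox at 26.4 against 93.5. In the ibudilast library these values were 5218 against 1270, 169 against 38.3 and 1034 against 556, and Tox was again at a lower level in the cells rich in Gzma. Other genes did not follow one pattern: Xcl1 was at 434 against 662 CPM in the PBS library and at 613 against 385 in the ibudilast library, and Prf1 at 225 against 309 and at 320 against 323. Ncr1, which marks NK cells, had 2 UMIs in the PBS cells rich in Gzma and 34 in the ibudilast ones, of 3 and 37 over all members. Klra8, another NK gene, had 0 and 34 UMIs over all members. The part of NK RNA in the Gzma values was not tested. Trac, the alpha chain constant gene, was at 625 and 575 CPM in the cells rich in Gzma and at 879 and 923 in those without it.

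Ccl1, the ligand of Ccr8, was the gene with the lowest ratio of all counted. It stood at 271 CPM in PBS members and at 33.5 in ibudilast members (ratio 0.124, interval 0.102 to 0.15), with a UMI in 33 cells of the first and 34 of the second. Its 5 richest cells held 64.1% and 48.5% of the UMIs. Without the barcodes of at least 10 myeloid UMIs the levels were 184 and 44.2 CPM (ratio 0.241, interval 0.192 to 0.301), a shift of more than 1.5 times. It was the only one of the 10 counted cytokine and chemokine genes past 1.5, where 0.888% of all genes were lower, and their median log2 ratio was -0.25. Xcl1, which draws Xcr1 dendritic cells, was at 657 and 442 CPM (ratio 0.672, interval 0.626 to 0.722), short of the limit, and at 0.592 without those barcodes, past it. Ifng, the main effector cytokine of these cells, was at 525 and 536 CPM (ratio 1.02, interval 0.947 to 1.10) and Tnf at 34.9 and 38.7 (ratio 1.10). The inflammatory chemokine genes Ccl3 and Ccl4 had ratios of 0.855 and 0.828, Ccl5 0.918 and Ltb 0.817. Cxcl10, an interferon-induced chemokine, changed sides: its ratio was 1.27 over all members and 0.506 (interval 0.405 to 0.631) without those barcodes. Csf2 had 30 and 13 UMIs and Il2 13 and 49, both under the counting limit.

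**Figure D2:**
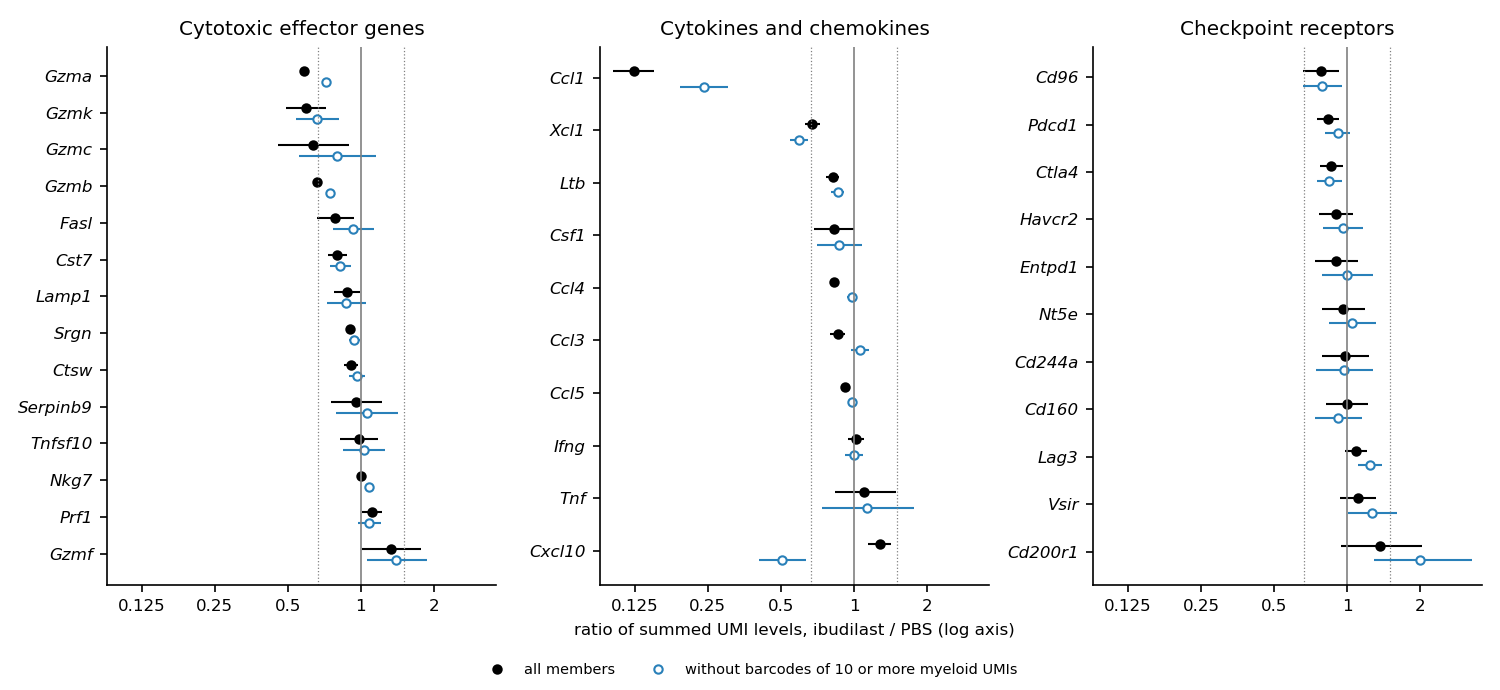
Ratio of ibudilast to PBS (log axis) with counting intervals for the counted cytotoxic, cytokine and checkpoint genes, over all members (black) and without barcodes of at least 10 myeloid UMIs (blue); dotted lines mark 1.5 either way. Gzma, Gzmb, Gzmc and Gzmk lie past the lower line over all members, Ccl1 lies at 0.124 and 0.241, and the checkpoint receptors lie between the lines except Cd200r1 at 2.00 without those barcodes.

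Of inhibitory receptors, none of 11 counted genes passed 1.5, a count too small to set apart from the 2.49% higher and 0.888% lower among all genes, and their median log2 ratio was -0.05. Pdcd1, which encodes PD-1, was at 269 and 224 CPM (ratio 0.834, interval 0.749 to 0.929) and had a UMI in 75.7% and 75.1% of members. Lag3 was at 279 and 304 CPM (ratio 1.09), Havcr2 at 118 and 106 (ratio 0.897), Ctla4 at 269 and 232 (ratio 0.862) and Cd96 at 106 and 82.9 (ratio 0.779). Tigit had 12 and 20 UMIs. Of 17 counted transcription factors, 2 were higher, against 2.49% of all genes. Tox was at 74.3 and 112 CPM (ratio 1.51, interval 1.26 to 1.83) and Ikzf2, which encodes Helios, at 50.2 and 88.5 (ratio 1.76, interval 1.41 to 2.22). Both were higher without the myeloid barcodes too, at 1.59 and 1.80. Thinned to 2000 UMIs, Tox had a UMI in 14.4% and 23.1% of members, beside 0.166% and 0.387% of macrophages. At 4000 UMIs the members' shares were closer, 26.2% (interval 20.4 to 32.7) and 31.1% (interval 26.6 to 35.9). Unthinned they were 43.1% and 51.7%. Nr4a2, Id2, Prdm1 and Irf4 had ratios of 0.988, 0.991, 1.03 and 1.05.

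Among homing genes Itgae was lower. It encodes CD103, the integrin that holds T cells to E-cadherin, and was at 84.1 and 47.1 CPM (ratio 0.560, interval 0.453 to 0.692), with a ratio of 0.562 without the myeloid barcodes. A UMI was found in 27.5% and 17.5% of members. It was the 1 gene of 16 counted that passed the limit, where 0.888% of all genes were lower. The integrin genes Itga4 (150 and 217 CPM, ratio 1.45), Itgb1 (ratio 1.41) and Itgb7 (ratio 1.39) stood on the other side of 1 and short of 1.5, except that Itga4 reached 1.56 without those barcodes. Itga1 was at 136 and 102 CPM (ratio 0.749). Cxcr6, Cd69 and Rgs1 had ratios of 1.01, 0.960 and 0.946.

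Of 17 genes of T cell receptor signalling, 1 was higher and 2 were lower, where 2.49% and 0.888% of all genes were, and 2 of the 3 were the constant genes of the beta chain. The third was Cd6, a surface receptor that tunes the strength of receptor signals, at 212 and 131 CPM (ratio 0.618, interval 0.543 to 0.703; 0.643 without the myeloid barcodes). It was spread widely, with its 5 richest cells holding 8.58% and 8.29% of UMIs. A UMI was found in 78.4% and 60.3% of members, and after thinning to 2000 UMIs in 35.6% and 20.9%, beside 0.277% and 1.03% of macrophages. The related Cd5 was at 109 and 76.2 CPM (ratio 0.701). Lck, Zap70, Lat and Cd247, which carry the signal, had ratios of 1.0, 1.03, 1.02 and 1.02.

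Phosphodiesterases break down cAMP and cGMP, and ibudilast inhibits some of them. Of 15 listed, 3 were counted and none passed 1.5: Pde3b at 43.8 and 39.5 CPM, Pde4b at 26.1 and 31.3 and Pde7a at 75.7 and 64.4. Pde4d had 23 and 63 UMIs and Pde4a 25 and 47. Of 13 counted genes of cAMP receptors and the CREB response none passed 1.5, and the median log2 ratio was -0.08. Crem, a CREB target, was at 44.3 and 41.9 CPM, and Adora2a and Ptger4, receptors that raise cAMP, had ratios of 0.943 and 0.814. Mif was at 547 and 522 CPM (ratio 0.953), and none of the 5 counted genes of the MIF axis passed 1.5. Cd74, its receptor and also the chaperone of MHC class II, had a ratio of 0.915 and, without the myeloid barcodes, of 0.451.

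The 12 lowest genes by the interval bound nearest to 1 included, beside those above, Ccl6 (59.5 and 26.9 CPM, ratio 0.452), Socs2, an inhibitor of cytokine signals (44.3 and 19.7, ratio 0.446), Ldlrad4, an inhibitor of TGF-beta signals (32.5 and 16.5, ratio 0.509), the sialyltransferase St3gal6 (52.1 and 29.8, ratio 0.572) and Gatm, an enzyme of creatine synthesis (93.0 and 57.5, ratio 0.618). Without the myeloid barcodes these 5 had ratios of 0.119, 0.718, 0.493, 0.599 and 0.599. The 12 highest were mixed. Hmox1, Cd68, Spi1 and Pid1 had ratios of 1.92, 1.70, 1.61 and 2.09 over all members and of 0.768, 0.923, 0.911 and 0.429 without those barcodes. Cebpb, Plekho1 and Ifi205 went from 1.63, 1.85 and 2.51 to 1.04, 1.29 and 1.34. Cd68, Spi1 and Cebpb are among the 9 myeloid genes that picked those barcodes, so their change was partly set by the filter. Ikzf2, Nrgn, Wls and Ecpas were past 1.5 both ways. Nupr1 was at 2.04 over all members and, without those barcodes, at 1.75 with an interval of 0.799 to 4.69. Without those barcodes Nupr1, Hmox1, Pid1, Ifi205 and Ccl6 had under 100 UMIs, so their ratios there are not counted. Nrgn, a calmodulin-binding protein, was at 32.0 and 66.6 CPM (ratio 2.07; 2.11 without those barcodes), and Wls, needed for Wnt secretion, at 18.2 and 36.5 (ratio 1.99; 3.04 without).

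The members' T cell receptors differed between the libraries. Each T cell usually joins 1 of many variable segments to its beta chain and to its alpha chain, and daughter cells share it. Unrelated cells can hold the same segment, so a shared segment does not by itself mark common descent. The libraries were read from the 3' end of transcripts and reach the variable segment in a minority of cells. A beta segment (Trbv) was seen in 29 of 218 PBS members (13.3%, interval 9.09 to 18.5) and 92 of 418 ibudilast members (22%, interval 18.1 to 26.3), and an alpha segment (Trav) in 22 (10.1%) and 91 (21.8%). Macrophages had a Trbv UMI in 0.0539% and 0.297% of barcodes and a Trav UMI in 0.377% and 0.654%. Segments that lead in the libraries are shown so that they can be told apart. Each line gives the last 120 bases of the transcript on the plus strand (GENCODE M21, mm10), with capitals for the cysteine triplet that opens the third complementarity-determining region. Trbv2 lies at chr6:41047340-41047995, Trbv3 at chr6:41048290-41048828, Trbv17 at chr6:41163062-41163556, Trav14n-3 at chr14:53370077-53370575 and Trav16 at chr14:53743104-53743705.
Trbv2: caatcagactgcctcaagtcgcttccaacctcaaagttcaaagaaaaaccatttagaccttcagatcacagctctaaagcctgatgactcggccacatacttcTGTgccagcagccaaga
Trbv3: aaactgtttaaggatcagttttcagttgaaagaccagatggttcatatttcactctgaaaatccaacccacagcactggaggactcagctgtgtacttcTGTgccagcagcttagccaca
Trbv17: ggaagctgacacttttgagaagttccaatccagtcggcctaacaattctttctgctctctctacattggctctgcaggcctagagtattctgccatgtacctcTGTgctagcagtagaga
Trav14n-3: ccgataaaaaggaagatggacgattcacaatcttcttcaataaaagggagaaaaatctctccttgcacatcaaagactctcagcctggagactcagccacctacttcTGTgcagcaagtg
Trav16: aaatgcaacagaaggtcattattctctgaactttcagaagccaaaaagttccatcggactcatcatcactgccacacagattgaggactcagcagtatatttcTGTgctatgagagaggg
The beta segments are distinct: the closest other segment to Trbv2 was Trbv4 at 58.0% identity, to Trbv3 Trbv15 at 58.7% and to Trbv17 Trbv4 at 52.7%. The alpha segments have near copies, so their counts are uncertain between copies. Trav14n-3 and Trav14-3 were 97.2% identical and Trav16 and Trav16n 98.5%.

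Trbv17 led in the PBS library and Trbv2 in the ibudilast library. By the segment with most UMIs in a cell, Trbv17 took 13 of 29 PBS members with a Trbv UMI (44.8%, interval 26.4 to 64.3), followed by Trbv19 and Trbv3 with 4 each. Trbv2 took 57 of 92 ibudilast members (62.0%, interval 51.2 to 71.9), followed by Trbv3 with 16. Over all members, a Trbv17 UMI was in 14 of 218 PBS cells and 0 of 418 ibudilast cells, which allows a share of up to 0.718% at 3 counts. A Trbv2 UMI was in 0 of 218 PBS cells, which allows a share of up to 1.38% at 3 counts, and in 57 of 418 ibudilast cells (13.6%, interval 10.5 to 17.3). These limits are for cells with such a UMI, not for cells that use the segment, since most cells give no segment UMI. For the alpha chain, Trav8n-2 was in 7 PBS cells and 0 ibudilast cells, and Trav14n-3 in 0 and 38 (9.09% of the 418). Trav16 occurred in both, in 5 and 35 cells. The leading segments went together: 21 ibudilast members had both Trbv2 and Trav14n-3, 7 had Trbv3 and Trav16, 3 had Trbv2 and Trav12-2, and none had Trbv2 with Trav16 or Trbv3 with Trav14n-3. In the PBS library 2 members had both Trbv17 and Trav8n-2.

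The cycling CD8 T cells, which share no barcode with the members, had the same leading beta segments. Trbv17 took 5 of 14 PBS cycling cells with a Trbv UMI, and Trbv2 took 21 of 34 ibudilast ones (61.8%, interval 43.6 to 77.8) and 1 of the 14 PBS ones. 11 ibudilast cycling cells had both Trbv2 and Trav14n-3. In conventional CD4 T cells Trbv2 took 2 of 14 PBS and 2 of 12 ibudilast cells with a Trbv UMI.

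**Figure D3:**
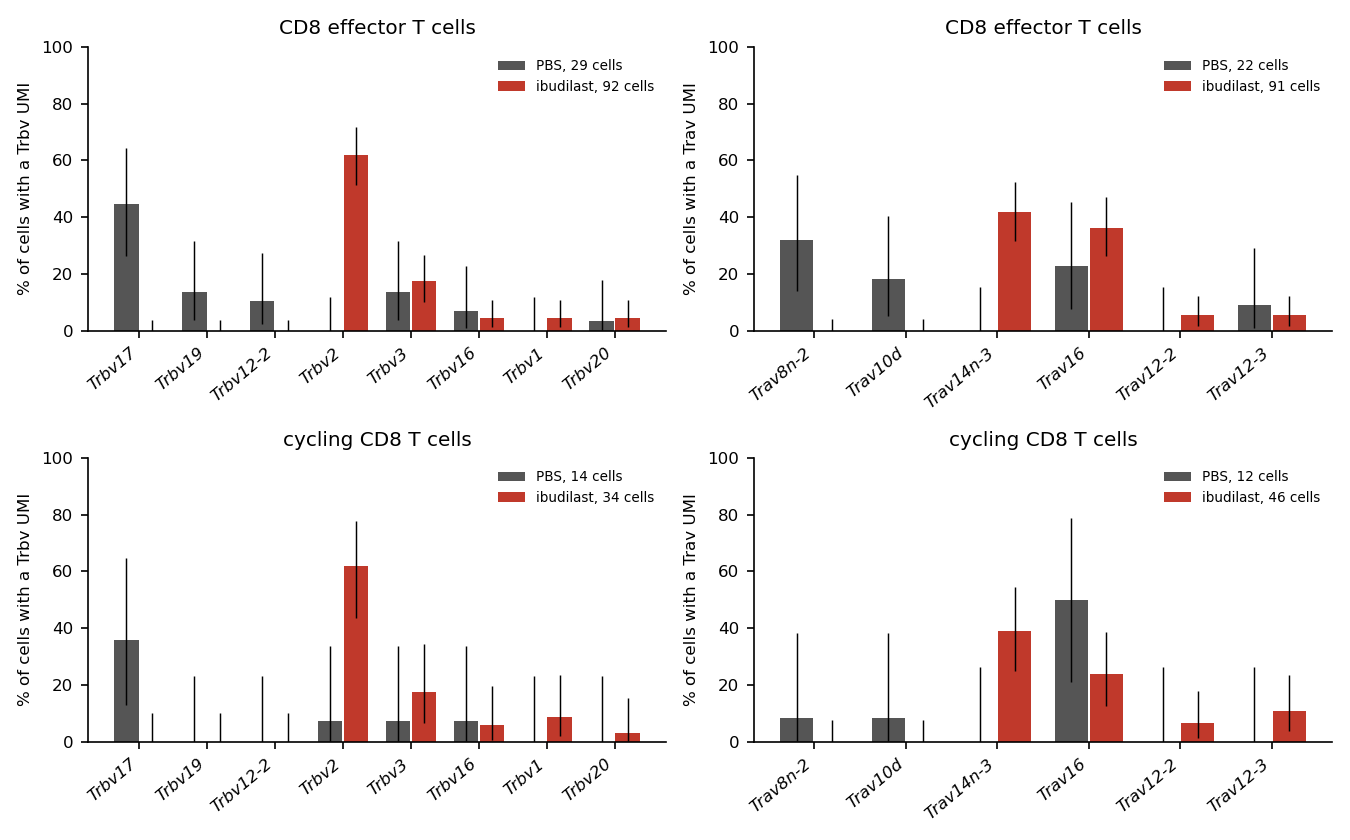
Share of cells whose leading beta (Trbv, left) or alpha (Trav, right) segment is the one named, among cells with such a UMI, in CD8 effector T cells (top) and cycling CD8 T cells (bottom), by library; bars are shares and lines exact binomial intervals. Trbv17 is at 44.8% of 29 PBS cells and Trbv2 at 62.0% of 92 ibudilast cells.

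The constant genes, read in nearly every cell, also differed. A beta chain uses 1 of 2 constant genes, Trbc1 or Trbc2. Trbc1 was at 719 and 1349 CPM (ratio 1.88, interval 1.77 to 1.99) and Trbc2 at 1894 and 1166 (ratio 0.616, interval 0.590 to 0.642). Their coding parts are near-identical copies, so how reads were split between the 2 genes is uncertain. Trbc1 was 27.5% of the Trbc UMIs of PBS members and 53.6% of those of ibudilast members. In cycling CD8 T cells it was 32.4% and 57.3%, in regulatory T cells 33.8% and 39.9%, and in conventional CD4 T cells 36.4% and 35.2%. Members with Trbc1 at 50% or more of their Trbc UMIs were 60 of 218 and 268 of 418. The share differed between segment groups. In the ibudilast library it was 64.2% in the 74 members with Trbv2 or Trav14n-3. It was 70.9% in the 44 with Trbv3 or Trav16 and 48.0% in the 300 with none of these. In the PBS library it was 0.570% in the 19 with Trbv17 or Trav8n-2, of which 18 had no Trbc1 UMI. It was 44.0% in the 9 with Trbv3 or Trav16 and 29.5% in the 191 with none of these. Trbv2 and Trbv17 led in different libraries, so segment and library cannot be told apart between their groups. Thinned to 2000 UMIs, Trbc1 was found in 45.8% and 72.1% of members, beside 1.41% and 3.29% of macrophages. It was also found in 52.5% and 51.2% of NK cells, which have no Cd3 UMI by their rule. Trbc1 RNA thus does not by itself tell which constant gene a cell's receptor uses.

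Members with the leading segment of their library had lower summed levels of Gzma, Gzmb and Gzmk than members without one. The 74 ibudilast members with Trbv2 or Trav14n-3 had Gzma at 85.1 CPM (interval 65.3 to 109), Gzmb at 584 (interval 529 to 642) and Gzmk at 17.8, against 2094, 2342 and 77.8 CPM in the 300 ibudilast members without these segments or Trbv3 and Trav16. Their Gzma level was below that of ibudilast macrophages, 286 CPM. Prf1 was at 555 against 272 CPM, Ifng at 825 against 466, Tox at 183 against 94.1 and Ikzf2 at 126 against 79.9. The 19 PBS members with Trbv17 or Trav8n-2 had Gzma at 252 CPM, all of it in 1 cell, Gzmb at 1256 and Gzmk at 22.9, against 2879, 3160 and 103 CPM in the 191 without a leading segment. Xcl1 was at 1285 CPM in these 19 and 599 in the 191, while in the 74 ibudilast cells it was at 328 and in the 300 at 486. The 44 ibudilast members with Trbv3 or Trav16 had Gzma at 164 CPM, Gzmb at 1400, Prf1 at 232 and Ifng at 519. The 9 PBS members with these segments had Gzma at 2816 CPM, all of it in 1 cell. Of the 191 PBS members, 171 had no variable segment UMI, with Gzma at 3076.5 CPM and Gzmb at 3266. The other 20 had another segment, with Gzma at 1167.5 CPM and Gzmb at 2243. In the PBS library the gap was thus smaller against members with another segment. A Gzma UMI was in 19 of the 74 and 92 of the 300 ibudilast members. The 300 were mostly members without any segment UMI: 266 had none, 82 of them with a Gzma UMI. The other 34 had another segment, 10 of them with a Gzma UMI.

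**Figure D4:**
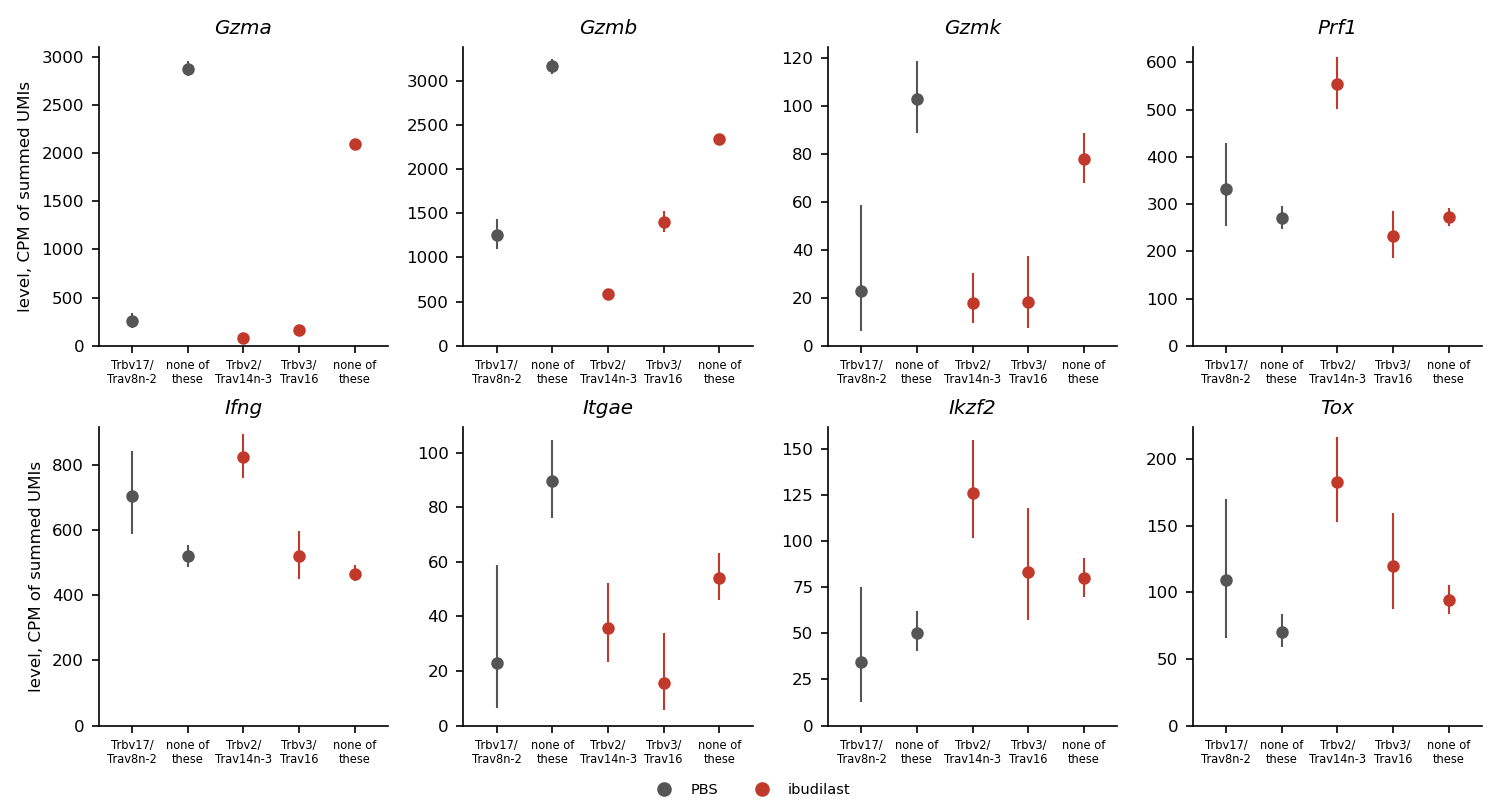
Levels of 8 genes (CPM of summed UMIs, each axis from 0) in members grouped by their receptor segments, with Poisson intervals, for the PBS library (grey) and the ibudilast library (red). Gzma is at 85.1 CPM in cells with Trbv2 or Trav14n-3 and at 2094 in ibudilast cells with none of the segments, while Prf1 is at 555 and 272.

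With all barcodes that carry Trbv17, Trav8n-2, Trbv2 or Trav14n-3 left out, 199 PBS and 344 ibudilast members remained. Since most cells give no segment UMI, others of the same kind stay in. The ratio of Gzma was then 0.648 and of Gzmk 0.640, still past 1.5. Gzmb was at 0.721, which is not, and Prf1 at 0.944. Tox was at 1.36 and Ikzf2 at 1.55, Itgae at 0.552 and Ccl1 at 0.109. Split by the constant gene instead, members with Trbc1 under 50% of Trbc UMIs had Gzma at 2879 CPM in the PBS library (157 cells) and 3260 in the ibudilast library (150 cells). Members with Trbc1 at 50% or more had it at 1992 (60 cells) and 674 (268 cells). Both splits were chosen after the data were seen.

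Clustering of the 632 members with at least 2000 UMIs, without receptor, mitochondrial, ribosomal and haemoglobin genes, gave 5 subclusters, which are left unnamed. Subcluster 0 (93 PBS and 170 ibudilast cells) was led by Gzma, Tox and Lyst, and subcluster 1 (18 and 42) by the interferon-induced Cmpk2, Ifit1 and Ifit3. Subcluster 2 (28 and 55) was led by Stmn1, Xcl1 and the replication gene Mcm3. Subcluster 3 (53 and 73) was led by Fabp5, Spp1 and Trem2, which are macrophage genes, and subcluster 4 (24 and 76) by Gpr141, Ly6i and Slfn4. In subcluster 4, 98 of 100 cells had at least 10 myeloid UMIs, and the median depth was 14972 UMIs against 7120 in subcluster 0. Because genes that define subclusters differ between the libraries, their sizes are not compared. Gzma was at a ratio below 1 in all 5: 3758 and 3216 CPM in subcluster 0, 3869 and 250 in subcluster 1, 2004 and 1143 in subcluster 2, 2049 and 1251 in subcluster 3, and 1613 and 595 in subcluster 4. As Gzma itself led subcluster 0 and all come from the same 2 libraries, these 5 ratios are not independent checks. Of the 74 ibudilast members with Trbv2 or Trav14n-3, 38 were in subcluster 0 and 16 in subcluster 2.

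Other lymphocytes of the same libraries are set beside the members, without a test. Gzma was higher in NK cells of the ibudilast library (4910 and 9116 CPM, ratio 1.86) and lower in its cycling CD8 T cells (3269 and 820, ratio 0.251). Gzmb had a ratio of 1.05 in NK cells, 1.01 in regulatory T cells, 1.09 in conventional CD4 T cells and 0.524 in cycling CD8 T cells. Ccl1 was lower in NK cells (545 and 92.4 CPM, ratio 0.170) and conventional CD4 T cells (1130 and 194, ratio 0.172) but had a ratio of 1.42 in cycling CD8 T cells. The NK ratio rests on few cells: a Ccl1 UMI was in 9 of 142 PBS and 5 of 306 ibudilast NK cells. Cd6 was at 1.27 in conventional CD4 T cells, 1.20 in regulatory T cells and 0.638 in cycling CD8 T cells. Itgae had a ratio of 0.605 in cycling CD8 T cells and 0.970 in regulatory T cells. Tox was higher in cycling CD8 T cells (ratio 1.96) and lower in conventional CD4 T cells (ratio 0.551). Prf1 was higher in cycling CD8 T cells (ratio 1.92), and Ifng had a ratio of 2.05 in NK cells and 0.365 in conventional CD4 T cells. Ifi205 had a ratio above 1.5 in all 5 populations, with macrophages at 128 and 154 CPM. Between the members and the cycling CD8 T cells, Gzma, Gzmb, Itgae, Cd6, Tox and Trbc1 thus lay on the same side of 1, and Ccl1 on opposite sides.

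**Figure D5:**
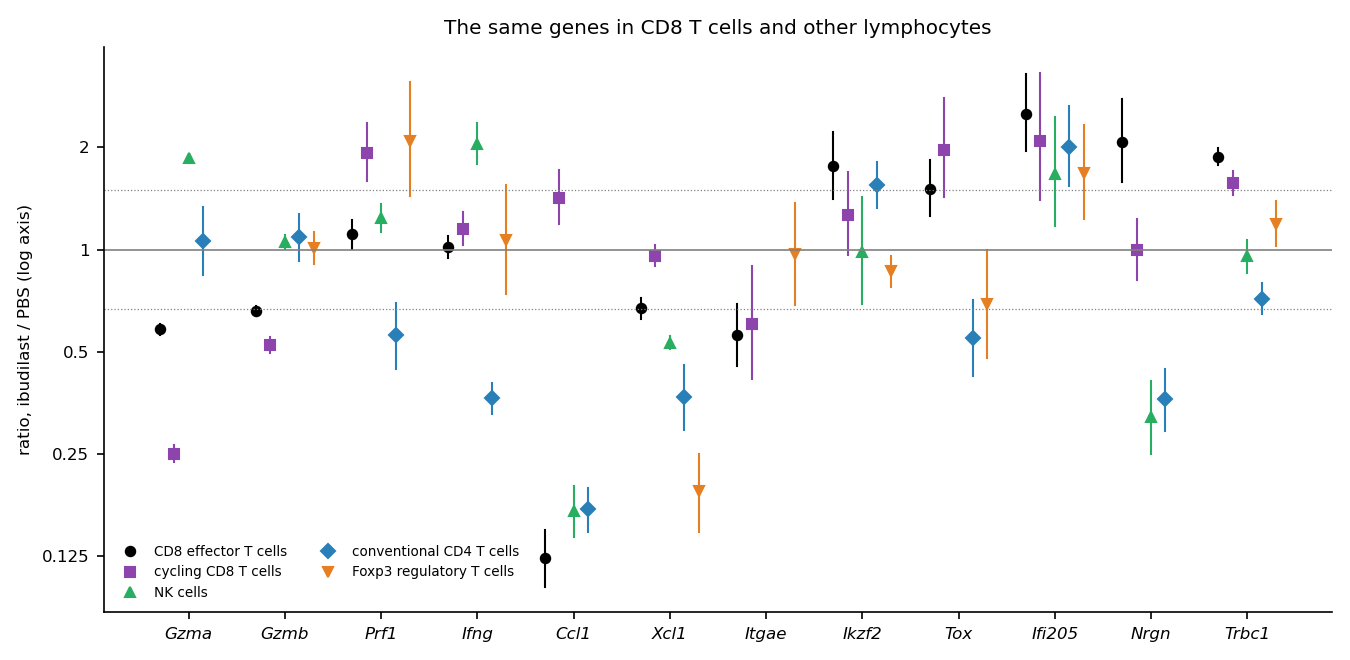
Ratio of ibudilast to PBS (log axis) for 12 genes in CD8 effector T cells and 4 other lymphocyte populations, with counting intervals; populations with under 100 UMIs of a gene are left out and dotted lines mark 1.5 either way. Gzma is at 0.582 in the members and 1.86 in NK cells.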

How the data were processed

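Single-cell RNA was measured in 1 PBS and 1 ibudilast library of CD45+ glioma cells (10x 3' v3.1 chemistry). The authors deposited whole-number UMI counts for each barcode and gene. Per the file headers these counts were made with Cell Ranger 6.1.1, and per the submitters' processing notes on mm10. Both tables list 31253 genes.

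Members were found by the rule above. Their counts were summed per library, scaled to CPM, and compared as a ratio with 0.5 UMIs added to each sum. UMI sums have exact Poisson intervals, shares Clopper-Pearson intervals and ratios exact conditional binomial intervals, all at 95%. They describe counting error alone, and understate the error of genes that a few cells dominate. The gene rule was checked on simulated data. Python 3.11.15, scipy 1.17.1 and scanpy 1.11.5 were used. Subclusters came from cells thinned to 2000 UMIs, 1500 variable genes, 20 components, 15 neighbours and Leiden resolution 0.6. Scrublet's automatic threshold marked 0 barcodes in either library, so no doublets were removed in the main values; 9 and 34 members were among the 6% with the highest scores, left out as an alternative.

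Genes were named by rule: the 12 highest and 12 lowest by the interval bound nearest to 1, with that bound beyond 1.25-fold, 100 UMIs or more, and detection in 10% or more of the cells of the higher library, without mitochondrial, ribosomal, haemoglobin, antigen receptor and unnamed genes, plus the members of the gene lists and markers, the genes leading a subcluster and the most frequent receptor segments. The members and gene lists were chosen with earlier results of these data known. 2 alternatives, without barcodes of at least 10 myeloid UMIs and without barcodes with a leading receptor segment, were chosen after the data were seen, as were the classes by Gzma UMIs and by the share of Trbc1. A few genes and 1 sequence are not reported here.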

Additional observations from a re-analysis of the deposited data

Results flagged for a closer look

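In 3 genes the ratio of ibudilast to PBS lay past 1.5 one way in CD8 effector T cells and past 1.5 the other way in another lymphocyte population. With 1 library per group these differences were not tested. All these ratios include barcodes of at least 10 myeloid UMIs, which were 22.3% of PBS and 45.9% of ibudilast conventional CD4 T cells. Gzma had a ratio of 0.582 in CD8 effector T cells and 1.86 in NK cells. Nrgn had a ratio of 2.07 in CD8 effector T cells, 0.322 in NK cells and 0.363 in conventional CD4 T cells. Tox had a ratio of 1.51 in CD8 effector T cells and 0.551 in conventional CD4 T cells.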

How the results depend on the processing

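No paired analysis was possible because each group has 1 library. Over 13 alternatives, 556 of 728 gene ratios stayed within the counting interval of the main value, 153 left it and 19 called ratios changed sides. The share ratio of 2.21 ranged from 1.99 to 2.33 except with C1qa and C1qb at 0, where it was 8.06. That alternative left 4 PBS and 28 ibudilast barcodes and 305 genes. There 31 genes were higher, 16 lower and 1 cytotoxic gene lower, and Gzma (104), Ccl1 (6.14), Gzmc (1.77), Itgae (1.41), Cd6 (1.27), Socs2 (1.23), Ecpas (0.864), Ifi205 (0.682), Cd68 (0.682), Hmox1 (0.500), Spi1 (0.318), Nupr1 (0.136) and Pid1 (0.136) changed sides, so with 4 PBS barcodes these ratios say little. Thinned to 2000 UMIs, 1686 genes were counted, 27 higher and 17 lower, with 2 cytotoxic genes lower and Gatm at 1.12. With a gene minimum of 50 UMIs 365 were higher and 171 lower, and with 400 UMIs 11 and 8, as more or fewer genes were counted. Without the barcodes of at least 10 myeloid UMIs, 67 genes were higher and 1 cytotoxic gene was lower, and Hmox1 (0.768), Cd68 (0.923), Pid1 (0.429), Spi1 (0.911) and Iigp1 (0.849) changed sides, Hmox1 and Pid1 on under 100 UMIs. Cd68 and Spi1 are among the genes that picked those barcodes, so their change was partly set by the filter. Without the barcodes with a leading receptor segment 2 cytotoxic genes were lower; the cause was not tested. Clustering gave 5 subclusters at resolution 0.6, 2 at 0.4 and 8 at 0.9. Depth limits what can be said of variable segments, seen in at most 22% of members, and of genes under 100 UMIs.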

Other observations

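Interferon, metabolism and division genes are read against the 2.49% of all counted genes that were higher and the 0.888% that were lower. None of 20 counted type I interferon response genes passed 1.5, and their median log2 ratio was 0.12 over all members and -0.05 without the barcodes of at least 10 myeloid UMIs. Ifi27l2a, a small interferon-induced protein, came closest at 3497 and 4918 CPM (ratio 1.41), and reached 1.51 without those barcodes. Of 11 counted interferon-gamma response GTPase genes 1 was higher, Iigp1, with a ratio of 1.74 and, without those barcodes, 0.849. None of 15 glycolysis and hypoxia genes, 15 respiratory chain genes, 12 MHC class I genes or 11 cell cycle genes passed 1.5, with median log2 ratios of -0.01, 0.03, 0.01 and 0.05. Icos, a costimulatory receptor, was at 101 and 135 CPM (ratio 1.33), and none of the 11 counted costimulatory genes passed 1.5.

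RNA of cells other than macrophages was also seen in members. Hbb-bs, a haemoglobin chain, was at 6.39 and 35.3 CPM (ratio 5.33), with a UMI in 5.05% and 27.5% of members. Mbp, of oligodendrocytes, was at 48.7 and 81.9 CPM (ratio 1.68). Igkc, of B cells, was at 21.2 and 66.3 CPM (ratio 3.11), with 77.3% of its ibudilast UMIs in 5 cells, and at a ratio of 0.855, on under 100 UMIs, without the barcodes of at least 10 myeloid UMIs.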
